A study of Mus musculus with 4 samples.

Results

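Chromatin immunoprecipitation and sequencing (ChIP-seq) with an antibody to the transcription factor STAT3 gave 1 peak list for injured and 1 for sham-operated mouse spinal cord, and the positions found in both lists are described here. A shared position is a peak of the injured list on chromosomes 1 to 19 or X that overlaps a peak of the sham list by 1 bp or more. There were 7845 such positions among 36239 peaks of the injured list, 21.6% (95% exact binomial interval 21.2 to 22.1%). They matched 7848 of the 88757 sham peaks, 8.84%. The members were chosen by the positions of the peaks in both lists, so this share is a description and supports nothing further.

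Both conditions used C57BL/6 mice. SCI mice had a laminectomy and a moderate contusion (60 kdyn) at thoracic level 9 and were kept for 7 days, and sham mice had the laminectomy at the same level and the same 7 days. For either condition 1 STAT3 ChIP and 1 input were sequenced, and each library came from the pooled epicentre tissue of 3 mice. The tissue was digested to single cells with no sort for a cell type, so a peak cannot be assigned to astrocytes or to any other cell of the cord, and peak lists hold no expression by which cell types could be checked. With 1 library per condition no difference between SCI and sham has a replicate check, and intervals given here cover counting error only. The read depth of the libraries is unknown, and the inputs were not analysed here.

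STAT3 is phosphorylated by JAK kinases below receptors of the interleukin-6 family, pairs up through its SH2 domain and binds DNA as a dimer. Its usual site is a palindrome that begins with TTC and ends with GAA. In the injured cord STAT3 is known for its part in the reaction of astrocytes that surrounds the lesion.

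The DNA sequence at shared positions could be read where a peak covered at least 50 bp of a RefSeq promoter window, which runs from 250 bases before to 50 bases after a gene start (build GRCm38.p6, whose main chromosomes have the mm10 coordinates of the lists). This was so for 42 shared positions at 48 windows. A run of 10 or more A or T lay within 200 bp of the centre at 33 of the 42. The 4 best-ranked positions with a run of 15 or more A and the 4 best-ranked with such a run of T are printed to show how the run lies beside the peak. All are on the plus strand, 5′ to 3′, from beside the run to beside the centre of the SCI peak as far as the window reaches, with the run in capitals. The first 4 have the centre to the right of a run of A, and the last 4 have it to the left of a run of T. The runs at 4930423B08Rik and Gfi1 reach the edge of the window, so their lengths are minimums.
Papss2 (chr19:32619874-32620013): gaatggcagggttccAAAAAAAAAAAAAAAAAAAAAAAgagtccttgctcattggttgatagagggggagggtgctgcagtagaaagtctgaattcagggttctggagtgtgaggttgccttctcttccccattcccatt
4930423B08Rik (chr10:69328212-69328248): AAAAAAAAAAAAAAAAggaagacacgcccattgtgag
Gm34360 (chr14:45664409-45664473): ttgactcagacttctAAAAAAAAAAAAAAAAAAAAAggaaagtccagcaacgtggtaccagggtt
Gm48175 (chr10:85954731-85954781): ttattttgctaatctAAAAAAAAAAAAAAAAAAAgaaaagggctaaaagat
Gfi1 (chr5:107726001-107726055): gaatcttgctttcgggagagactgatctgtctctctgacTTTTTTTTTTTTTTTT
Map2k6 (chr11:110479163-110479319): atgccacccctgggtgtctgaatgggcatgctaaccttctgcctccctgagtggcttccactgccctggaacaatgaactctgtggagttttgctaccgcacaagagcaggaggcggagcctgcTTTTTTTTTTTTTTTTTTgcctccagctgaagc
Junos (chr4:95143961-95144025): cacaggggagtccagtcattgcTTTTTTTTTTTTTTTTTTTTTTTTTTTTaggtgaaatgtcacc
Gm27204 (chr9:72779378-72779474): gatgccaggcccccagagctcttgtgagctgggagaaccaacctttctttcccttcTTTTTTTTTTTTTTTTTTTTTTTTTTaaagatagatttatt

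Most shared positions at promoters lay beside a long run of A or T. The side is given for the longest run within 200 bp of each centre. Of the 48 windows, 36 (75%, interval 60.4 to 86.4%) held a run of 10 or more, against a background of 4.70% of all 32619 windows. A run of 15 or more was in 30 of the 48 windows (62.5%), against 1.80% of all windows. Runs of 10 or more C or G were in none of the 48, which allows up to 7.40%, and in 2.87% of all windows. On the plus strand all 19 runs of A lay to the left of the peak centre and all 14 runs of T to the right. On the strand that carries the A bases, the peak thus followed the run in 33 of 33 cases (lower bound 89.4%). The run length, as far as the windows showed it, had a median of 17 and reached 28, at Junos, the noncoding gene beside Jun.

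The sham partners overlap these SCI peaks by the rule, so their runs are given as a description and not as a further result. Of 44 shared sham peaks over promoter windows, 34 had a run, with 20 runs of A to the left and 14 runs of T to the right. At Papss2, which makes the sulphate donor for chondroitin sulphate, the run of 23 A lay 98.5 bp from the centre of the SCI peak and 102.5 bp from the centre of the sham peak. At Map2k6, a kinase gene above p38, the run of 18 T lay 117 bp from the SCI centre and 82 bp from the sham centre. At Junos the run of 28 T lay 20 bp from the SCI centre and 95 bp from the sham centre.

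Among peaks of only 1 list the share with such a run was lower, with intervals that do not overlap that of shared SCI peaks, though the run was mostly on the same side. Among SCI peaks that overlapped no sham peak, 43 of 125 had a run (34.4%, interval 26.1 to 43.4%), and 39 of these runs preceded the peak on the strand with A. Among shared SCI peaks the share with a run was 78.6% (63.2 to 89.7%). Among sham peaks that overlapped no SCI peak, 154 of 375 had a run (41.1%, 36.0 to 46.2%), and 152 of these preceded the peak. Of the 42 shared positions, 18 had known sequence for 80 bp or more on both sides of the centre, and 16 of these had a run. The exceptions were Bmpr1b, a receptor of bone morphogenetic proteins, and Sh3kbp1, an adaptor protein gene, both named after their values were seen. With the same requirement 19 of 52 unshared SCI peaks and 85 of 178 unshared sham peaks had a run. The contrast was smaller among peaks without the square-root form of the score, which is described below. There the share was 78.0% (62.4 to 89.4%) for shared SCI peaks. It was 45.0% (33.8 to 56.5%) for unshared SCI peaks and 54.8% (48.7 to 60.8%) for unshared sham peaks.

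**Figure D1:**
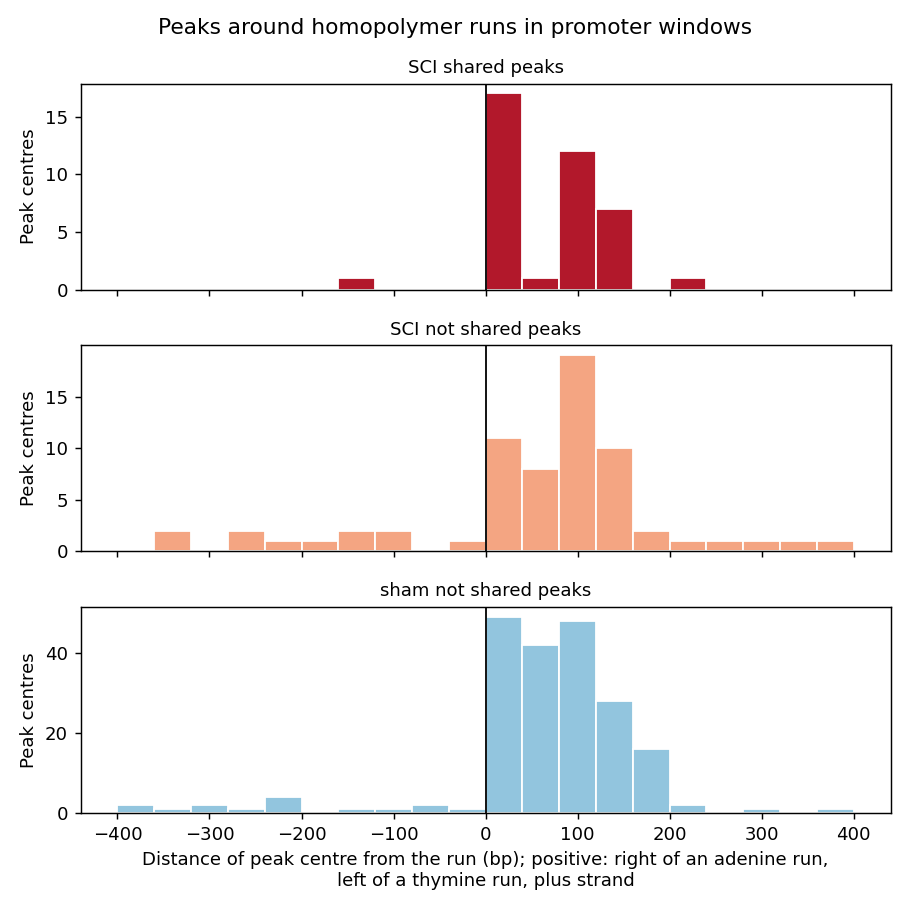
Number of peak centres (y axis, per 40 bp) by distance in bp from runs of 10 or more A or T in promoter windows (x axis). Distances are positive to the right of a run of A and to the left of a run of T on the plus strand. Shared SCI peaks (top), SCI peaks not shared (middle) and sham peaks not shared (bottom) lie mostly between 0 and 200 bp on the positive side, and the shared SCI peaks form a group below 40 bp and another between 80 and 160 bp.

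The same side was seen when starting from the runs. Promoter windows held 1549 separate runs of 10 or more A or T. A shared SCI centre lay within 200 bp after the run, on the strand with A, at 37 of them (2.39%, interval 1.69 to 3.28%), and within 200 bp before the run at 1. The median distance of these centres was 89.5 bp (interquartile range 24.5 to 117 bp). By length, 22 of 376 runs of 15 to 19 bases (5.85%) and 8 of 193 runs of 20 or more (4.15%) had a shared SCI peak after them, against 7 of 980 runs of 10 to 14 (0.714%). Unshared SCI peaks lay after 20 (5.32%) and 8 (4.15%) of the same 376 and 193 runs. Unshared sham peaks lay after 84 (22.3%) and 42 (21.8%) of them, so a place after a long run was not particular to shared positions. Any sham peak lay after 28.2% of the runs of 15 to 19 bases and before 0.266% of them. The libraries were made with the DNA SMART ChIP-Seq Kit, per the labels' protocols. As background, kits of this kind add a homopolymer tail to single-stranded DNA and start the copying from that tail. The part of library construction in the place of these peaks was not tested.

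The STAT palindrome was found at few of the shared promoter positions. The letters TTCNNNGAA, which read the same on both strands, were in 6 of the 48 windows (12.5%, interval 4.73 to 25.2%), against 8.34% of all promoter windows and 11.2% of the windows with an unshared SCI peak. The stricter TTCCNGGAA, contained in it, was in 3 windows (6.25%, 1.31 to 17.2%). It was in 1.16% of all windows and in 1.49% of those with an unshared SCI peak. The windows of Mrpl30 and Mitd1 overlap and hold the same letters at the same position. The interval counts windows as separate and is therefore too narrow. The 6 windows belong to 5 positions, and at 4 of them the letters lay inside the SCI peak. Both positions with the stricter form are printed, on the plus strand with the palindrome in capitals. A match is a description of the letters and not a shown binding site.
Mrpl30 and Mitd1 (chr1:37890446-37890474): aaaaaaacctTTCCCGGAAccaaagaacc
Gm52112 (chr14:117128195-117128223): agtcctgactTTCCCGGAActcactctgt

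At the start shared by Mrpl30, a mitochondrial ribosomal protein gene, and Mitd1, which acts in the last step of cell division, the palindrome lay 2.5 bp from the centre of the SCI peak (chromosome 1, 37890376 to 37890539, score 7.14, top 51.9% of the SCI list). A run of 15 A lay 12.5 bp to the left of that centre, and a second copy of the stricter palindrome lay outside the peak, at -87.5 bp from the centre. At Gm52112 the palindrome lay at the right end of the SCI peak, 77.5 bp from the centre, and the window had no run of 10. None of 1005 miRNA hairpins of the RefSeq table lay under a shared SCI peak. The same count was not made for other peaks, so this is a description only.

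The 2 peaks of a pair lay close together within the room that overlap leaves. The centres of the SCI peak and its sham partner were a median of 52 bp apart (interval 50 to 53 bp), while overlap at the usual widths of 164 bp (SCI) and 190 bp (sham) allows up to 176 bp. In 23.4% of pairs the centres were within 20 bp, in 49.0% within 50 bp and in 81.6% within 100 bp. The signed offset had a median of -2 bp, so neither list was shifted to 1 side. Pairing was nearly 1 to 1, since 4 SCI peaks overlapped 2 sham peaks and 1 sham peak overlapped 2 SCI peaks. Beyond the reach of overlap the number of SCI peaks was low and nearly level. There were 3767 SCI peaks with the nearest sham centre within 50 bp, 306 between 150 and 200 bp, and between 91 and 133 in each 50 bp step from 200 to 1000 bp.

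**Figure D2:**
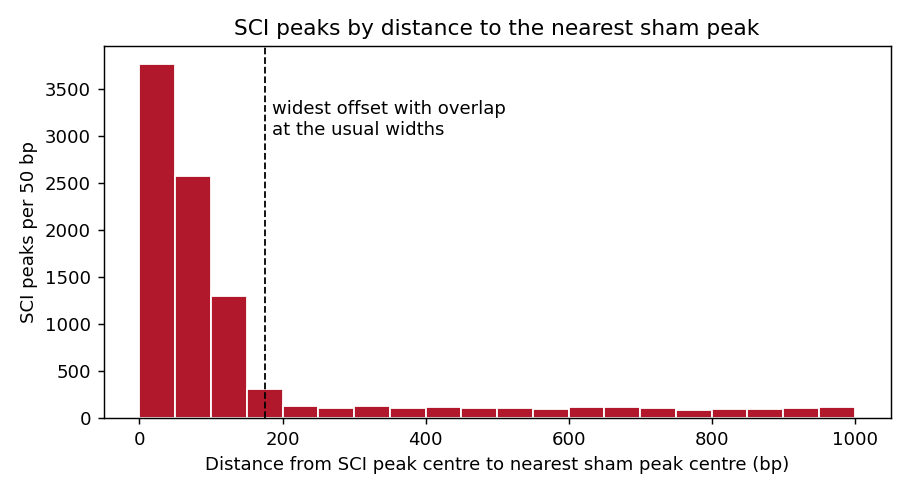
Number of SCI peaks (y axis, per 50 bp) by distance in bp from the SCI centre to the nearest sham centre (x axis). The dashed line marks 176 bp, and the count falls from 3767 in the first step to 132 between 200 and 250 bp.

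At the edge of the rule, the pairs with the least overlap shared 1 bp, on chromosomes 2, 3 and 7, with SCI peaks in the top 21.4, 64.4 and 22.8% of their list. The SCI peaks just outside touched a sham peak with no base between, as on chromosomes 8 (2 of them) and 5, in the top 1.17, 9.08 and 8.51%. There were 76 shared SCI peaks with an overlap of 10 bp or less, and 66 unshared ones with a gap of 10 bp or less.

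Shared positions tended to rank high in both lists. Rank is by the authors' score within a list, and a top percent of 10 means that the peak is among the highest 10% of its own list. The scores of the 2 lists are not known to be on 1 scale and are not set against each other. The shared SCI peaks had a median place at the top 33.2% of the SCI list (interval 31.9 to 35.0%), against the top 53.9% for unshared SCI peaks. The sham partners stood at the top 28.1% of the sham list (26.9 to 28.9%), against the top 51.5% for unshared sham peaks. In the top 10% of both lists stood 457 positions (5.83%), and below the median of both 852 (10.9%).

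By rank, 1 of the 10 highest SCI peaks was shared, then 50 of the next 90 (55.6%, interval 44.7 to 66.0%) and 459 of the 900 after those. The share was 37.6% among the following 4000 and 14.5% among the 16239 lowest. In sham 4 of the 10 highest peaks were shared, 35.6% of the next 90, and 6.52% of the 68757 lowest. Peaks narrower than the usual width were shared in 111 of 221 cases in SCI (50.2%) and 263 of 883 in sham (29.8%), against 21.5 and 8.63% of the peaks of usual width.

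**Figure D3:**
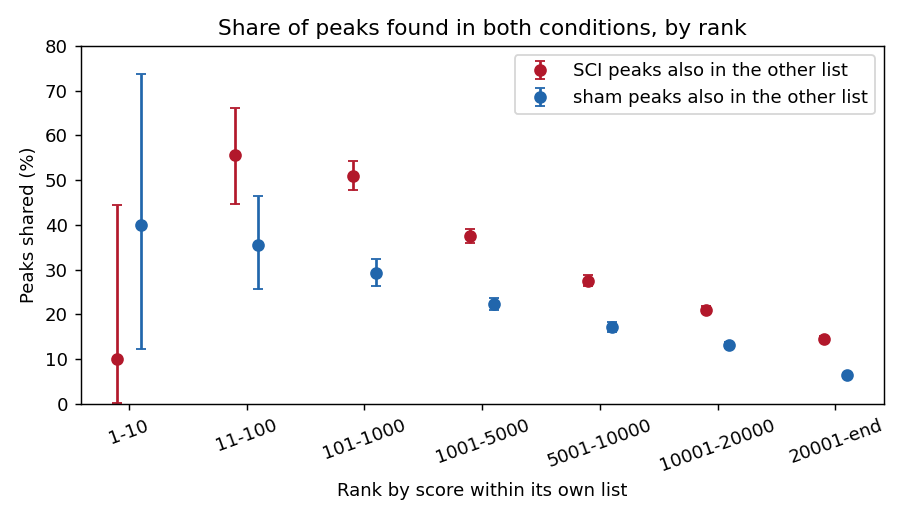
Share of peaks found in both lists (y axis, %) by rank within the own list (x axis), for SCI and sham peaks, with 95% exact binomial intervals. After the 10 highest peaks the share falls with rank in both lists, in SCI to 14.5% and in sham to 6.52% in the last group, which ends at rank 36239 and at rank 88757.

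Among shared positions in the top 10% of SCI, the sham partner stood at a median of the top 22.1% (interval 19.99 to 23.8%). Among those below the SCI median, the partner stood at the top 32.4% (30.5 to 33.9%). Of the 1526 shared positions in the top 10% of SCI, 330 were below the median of sham (21.6%). Of the 1858 in the top 10% of sham, 525 were below the median of SCI (28.3%). Among these are positions near Myc and Vcan, which were chosen after their values were seen. Myc is a known STAT3 target gene. Its SCI peak (chromosome 15, 62002966 to 62003129), 12.7 kb from the gene, stood at the top 91.7%, and its sham partner at the top 0.311%. The sham partner of the SCI peak 13.4 kb from Vcan, the gene of the scar proteoglycan versican, stood at the top 0.0868%, with the SCI peak at the top 63.3%. The sham partners near Myc and Vcan were both narrower than the usual width.

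The form of the score also set shared peaks apart. Some scores equal the root of a whole number, doubled and less 1, with the number within 0.0001 of whole. This form was held by 578 shared SCI peaks (7.37%), against 40.2% of the unshared ones. In sham it was held by 148 shared peaks (1.89%), against 24.99% of the unshared ones. In 7182 pairs neither peak had this form and in 63 both had it. No source used here says how the score was made.

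The strongest shared positions lay at genes of many kinds. The position inside Il2, the cytokine gene of T cells, was among the highest in both lists, at the top 0.0635% of SCI and 0.195% of sham, with centres 4.5 bp apart. The position inside Frk, a Src-family kinase gene, stood at 0.221% and 0.103%. Inside Gabrb1, a subunit of the GABA-A receptor, the SCI peak (chromosome 5, 72038832 to 72038995) had a score of 39.7 and stood at 0.182%, and the sham peak (72038969 to 72039060) stood at 0.658%. These centres were 101 bp apart, with 27 bp of overlap.

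Inside Tbck, which encodes a TBC-domain protein (chromosome 3, 132784842 to 132784926), the position stood at 0.631% in SCI and 0.670% in sham. Inside Rasgef1a, an exchange factor gene, it lay on chromosome 6 at 118071556 to 118071719, at 1.05 and 0.702%, with centres 2 bp apart. Further positions among the 15 best were inside Sfi1, a centrosome gene, and outside Crtc1 (a CREB coactivator), Mcm5 (a helicase subunit), Abcf2, Wdr20rt, Scaf8 and the lncRNA gene Gm36063, at distances of 2750 bp (Abcf2) to 32474 bp (Scaf8). Of the 15, 3 had no gene within 50 kb, on chromosomes 3, 5 and 19. Among all shared positions 90.3% lay inside or within 50 kb of a gene. The SCI peaks at Il2, Frk, Sfi1, Crtc1, Mcm5, Tbck and the gene-free position on chromosome 19 were 52 to 92 bp wide. The other SCI peaks of the 15 had the usual 164 bp. In the whole SCI list only 221 peaks were narrower than usual. The sham peaks at Il2, Frk, Sfi1, Crtc1, Mcm5, Gabrb1, Tbck, Scaf8 and Gm36063 were 63 to 177 bp wide, against the usual 190. The one at the gene-free position on chromosome 3 was 82 bp wide. In the whole sham list 883 of 88757 peaks were narrower than usual. Binding of STAT3 at these positions was not tested. Near Scaf8 the sham peak was the second highest of its list, with a score of 146, and the SCI peak (chromosome 17, 3082417 to 3082580) stood at 0.855%.

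Shared positions lay in and near genes somewhat more often than unshared SCI peaks. Of the shared centres, 53.2% (interval 52.1 to 54.3%) were inside a gene, against 51.0% (50.5 to 51.6%) of the unshared, and 45.1% against 43.0% were inside a protein-coding gene. Inside or within 50 kb of a protein-coding gene were 74.8% (73.8 to 75.8%), against 69.3% (68.7 to 69.8%). For a start site within 10 kb the shares were 25.5% (24.5 to 26.5%) and 21.2% (20.8 to 21.7%), and within 1 kb 2.47% (2.14 to 2.85%) and 2.38% (2.21 to 2.57%). The last intervals overlap. The median distance to a start site was 27.6 kb for shared and 37.4 kb for unshared SCI peaks. Start sites were taken from the promoter table, without chromosome 18.

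The share also went with the number of genes around. In 1 Mb bins with more than 20 protein-coding genes 26.8% of the SCI peaks were shared (interval 25.5 to 28.1%), and in bins with none 17.6% (lower bound 16.3%). By chromosome it ran from 17.9% on 14 and 18.6% on X to 24.5% on 4.

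Most shared positions lay alone on the chromosome. The gap to the next shared position had a median of 189 kb (interval 182 to 196 kb) and a mean of 326 kb, a ratio of 0.580. For unshared SCI peaks, which are more numerous, the median was 59.4 kb and the mean 90.4 kb, a ratio of 0.658. A neighbour within 10 kb made up 4.10% of the gaps between shared positions. Where 2 neighbouring SCI peaks were between 1 and 10 kb apart, the second was shared in 25.3% of cases after a shared peak (22.8 to 28.0%) and in 22.7% after an unshared one (21.3 to 24.1%). Between 10 and 50 kb apart these shares were 24.2% (754 of 3118, 22.7 to 25.7%) and 22.1% (2404 of 10864, 21.4 to 22.9%). At gaps over 100 kb they were 20.6% and 19.5%. The share after a shared peak was the higher one in all 5 ranges of distance compared, and the difference was not tested.

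**Figure D4:**
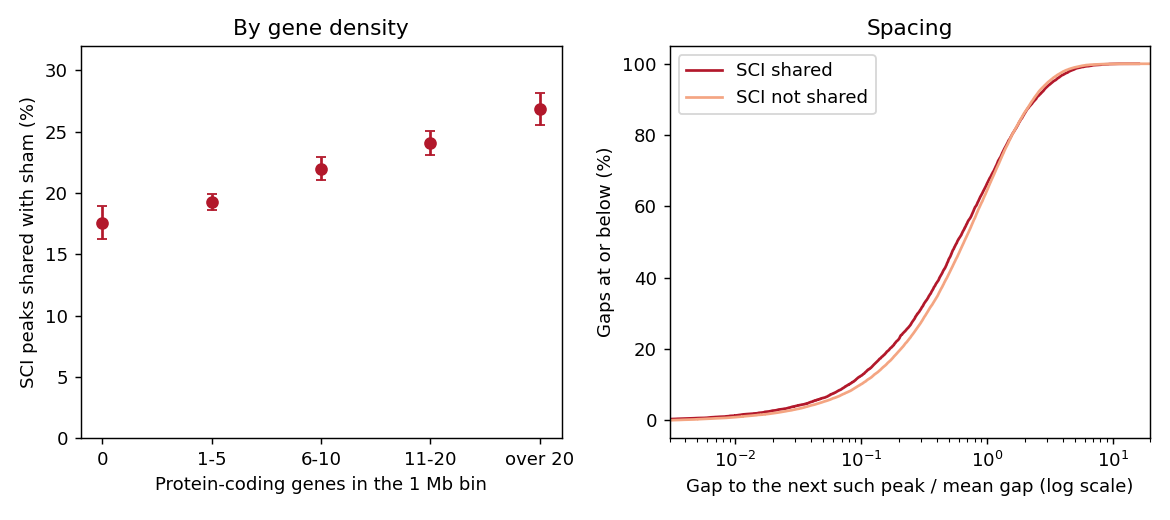
Left, share of SCI peaks shared with sham (y axis, %) by number of protein-coding genes in the 1 Mb bin (x axis), with 95% exact binomial intervals, between 17.6% with no gene and 26.8% with more than 20. Right, percent of gaps (y axis) at or below a given gap divided by the mean gap (x axis, log scale) for shared and unshared SCI peaks, where the curve of shared peaks lies slightly above at short gaps.

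With a gap of at most 10 kb, 7224 shared positions stood alone. There were 279 pairs of positions and 21 clusters of 3, the most found. The tightest cluster spanned 1.68 kb inside Slc6a17, a synaptic vesicle transporter gene, on chromosome 3 at 107473821 to 107475496. Its SCI peaks stood at the top 14.9, 16.6 and 82.3%, and its sham peaks at the top 17.9, 19.6 and 58.1%. The next were near Bmpr2, near Tafa3, at Jak1 with Raver2, at Dipk1a with Rpl5, at Bicdl2 with Mmp25, inside Hk2 (the hexokinase 2 gene) and inside Snf8, with spans up to 7.93 kb. All SCI peaks within these 8 spans were shared. Short spans cut from shared peak to shared peak leave little room for others, so this is a description only.

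At Jak1, the kinase below interleukin-6 receptors (chromosome 4, 101151974 to 101265282), the cluster spanned 6.07 kb across the end of the gene. Its best position (101155214 to 101155377 in SCI, score 29.5) stood at 0.764% in SCI and 2.64% in sham. The other positions had SCI peaks at 36.4 and 68.0% and sham peaks at 23.1 and 26.7%.

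With gaps of up to 50 kb, 248 stretches held 3 or more shared positions and 3 held 7. The first, on chromosome 11 from 95999096 to 96118007, ran over Calcoco2, Snf8 and Igf2bp1 and held 7 shared among 10 SCI peaks and 21 sham peaks. Another of 7 lay on chromosome 7 over Ceacam10 and Lypd11, where 10 SCI and 10 sham peaks stood, and the third on chromosome 17 over Capn11, Mrpl14, Tcte1, Tmem151b and Tmem63b. A stretch of 6 lay wholly within Prkca, the gene of protein kinase C alpha. Another stretch of 6, on chromosome 3 from 87866913 to 88001422, ran by the intermediate filament gene Nes and over the proteoglycan gene Bcan. All 6 SCI peaks in it were shared, beside 20 sham peaks, while the other stretches of 6 held 7 to 10 SCI peaks. Stretches fall outside the rule for named genes, and this one was named after its values were seen.

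**Figure D5:**
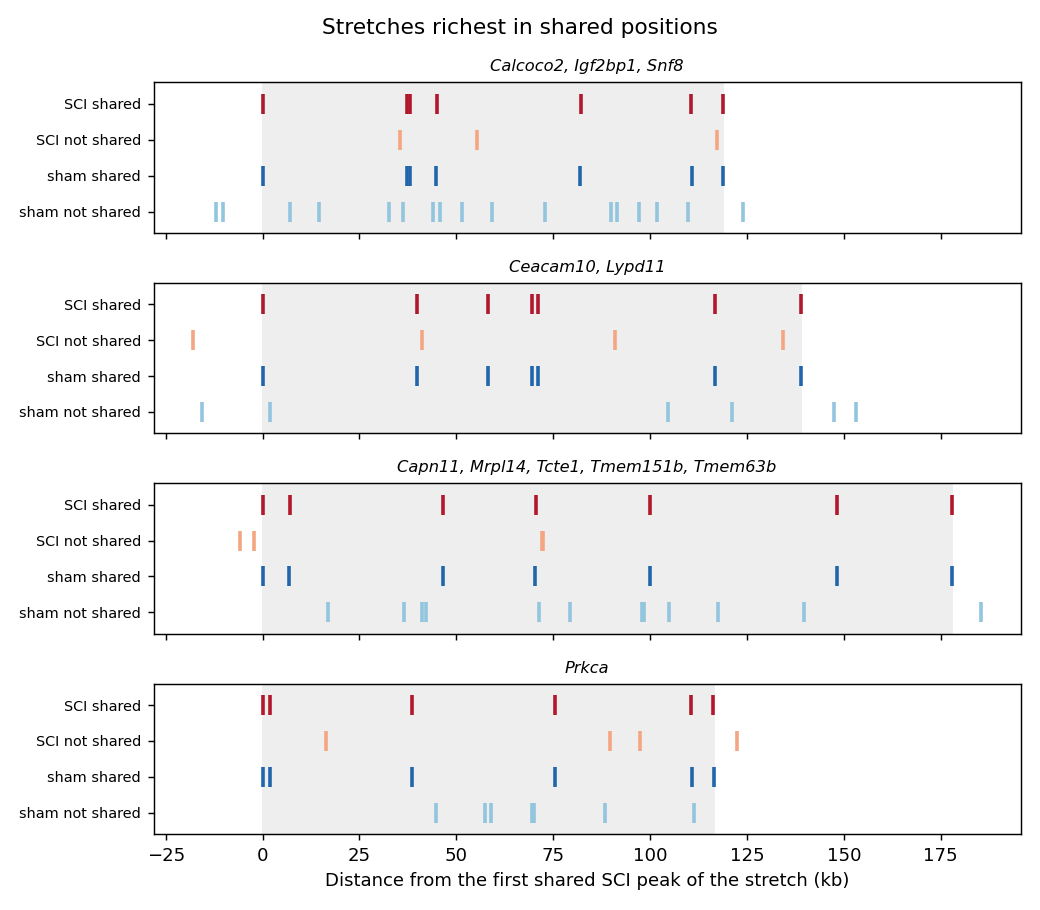
Peaks by distance in kb from the first shared SCI peak (x axis) in the 3 stretches with 7 shared positions and the shortest with 6, named by the genes they fall in. Each bar is a peak centre, in rows for SCI and sham peaks, shared or not, and grey marks the stretch. Sham peaks that are not shared stand among the shared ones in all 4.

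Long genes held the most shared positions. A shared position lay inside 2708 of 21631 protein-coding genes, 12.5% (the background for the lists below), and inside or within 50 kb of 9090, 42.0%. Among the shortest 10% of genes 0.0462% held one, and among the longest 10% 47.9%. Ctnna3 (alpha-T-catenin, 1574 kb) held 8 among 17 SCI peaks and Pcdh15 (protocadherin 15, 1554 kb) held 7 among 28. Per length Prkca had more than Ctnna3, with 6 in 411 kb or 1.46 per 100 kb, beside 0.508. Crybg1, named after its values were seen, had more per length than Prkca, with 5 in 199 kb or 2.52 per 100 kb. Bcas3, Ank3 (ankyrin G of the axon initial segment), Foxp1, Anks1b and Magi2 held 6 each, as did the longer Dlg2 and Cntnap2, which the limit of 8 genes left out and which were named after their values were seen.

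Of the gene lists, which hold 269 distinct genes, 138 genes had a shared position inside or within 50 kb. Glial scar matrix genes had one at 16 of 20 members (80%) and cell cycle genes at 15 of 20 (75%), against the 42.0% of all protein-coding genes. Neighbouring genes can count the same position, as Col4a1 and Col4a2 of the scar matrix list do. The scar matrix genes had a median length of 87.5 kb, against 17.3 kb for all protein-coding genes, and cell cycle genes one of 14.6 kb. Reactive astrocyte genes had one at 10 of 39 (25.6%), with a median length of 10.1 kb. The other lists lay between 44 and 61.1%. Inside the gene itself the counts were 8 of 20 for scar matrix genes, 2 of 20 for cell cycle genes and 1 of 39 for reactive astrocyte genes, against 12.5% of all. This background depends on length. With genes split by length into groups of 10%, the groups holding these 3 median lengths had 24.7, 7.44 and 4.26% inside. Inside or within 50 kb the same groups had 49.9, 43.4 and 41.8%.

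In the scar matrix list the best-placed members were Chsy1, a chondroitin synthase gene (4.26% in SCI, 4.93% in sham, 39.1 kb away), Lamc1 (laminin gamma 1), Bcan (brevican) and Tnr (tenascin R). The position inside Tnr, on chromosome 1 at 159809790 to 159809953 in SCI, stood at 7.30% and 16.9%. Among cell cycle genes Mcm5 was followed by Ccnd3 (cyclin D3), Cdk1 and Pcna. The position 6.91 kb from Cdk1, which drives entry into mitosis, stood at 8.20% in SCI and 15.2% in sham. It is the one at the start of 4930423B08Rik, printed above with its run of at least 16 A.

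Of the JAK-STAT3 list 16 of 36 members (44.4%) had a shared position, close to the background. Jak1 came first, then Stat3, Icam1 and Cebpb. The best position by Stat3 lay 15.8 kb outside the gene, at 13.9% in SCI and 1.19% in sham, and 2 more lay inside. Icam1, an adhesion molecule gene, had 5 within 50 kb and 1 of them inside, at 15.8 and 2.38%. Of the other genes tied to the study's question, Zeb2 had 1 inside, which lay 1.20 kb from Zeb2os. The Zeb2 position stood at 60.2% in SCI and 6.62% in sham. Socs3 had 1 at 16.6 kb, at 7.35% in SCI and 36.5% in sham. Gfap had none within 50 kb, the nearest lying 155 kb away.

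Among reactive astrocyte genes the best-placed were Ugt1a1 (0.301% in SCI, 2.25% in sham, 9.87 kb away), Nes, Lcn2 and Vim, the vimentin gene, whose position lay 2.16 kb outside. The best position near Nes is also the best one near Bcan of the scar matrix list. Resting astrocyte genes had 12 of 20 (60%), led by Mlc1, the glutamate transporter gene Slc1a3, the transcription factor gene Nfib and Acsbg1. The position inside Nfib (chromosome 4, 82386900 to 82387063 in SCI) stood at 5.52 and 9.47%. Microglia and macrophage genes had 11 of 25 (44%), led by Csf1r, the receptor that keeps microglia alive. Its position, inside the gene on chromosome 18 at 61105869 to 61106032 in SCI, stood at 7.10% in SCI and 0.159% in sham, and is also the best one near Pdgfrb of the vascular list. Lgals3, C1qa and C1qc followed, and the last 2 share their position with C1qb.

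Neuron genes had 11 of 20 (55%), with Nrxn3, a synaptic adhesion gene of 5 positions, first, then Syt1, Chat and Tubb3. Oligodendrocyte lineage genes had 10 of 20 (50%), led by Myrf, the myelin gene regulator, with a position inside at 9.06% in SCI and 0.514% in sham, and by Mag, Cspg4 and Sox10. Vascular and fibroblast genes had 8 of 18 (44.4%), with Cdh5, Tie1 and Tek after Pdgfrb. T cell and lymphocyte genes had 9 of 18 (50%), with Cd28, Cd4 and Cd79a after Il2. EMT and Zeb family genes had 11 of 18 (61.1%), led by Twist2, Tgfbr2, Lef1 and Tgfb3. Zeb1, the paralogue of Zeb2, named after its values were seen, had 2 within 50 kb, the better at 46.8% in SCI and 0.169% in sham. The sham peaks given for Zeb1, Csf1r and Myrf were narrower than the usual width, as was the SCI peak given for Ugt1a1. Housekeeping genes had 11 of 18 (61.1%), among them Tbp, Actb and Hprt.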

How the data were processed

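STAT3 ChIP libraries of SCI and sham spinal cord were, per the submitters' processing notes, mapped with Bowtie2 and build mm10. Not given in the sources used here are the caller, the control and the cut-off of the peaks. The deposited lists, 1 per condition and matched to a sample by title, hold for each peak the authors' score, which is 5 or more throughout, and a deposited −log10 value in the place of a q-value, which was not used. No unit of these lists is a count, so depth is unknown. Sequences on chromosomes 1 to 19 and X were used. Genes came from RefSeq GRCm38.p6, promoter sequences from its table. A centre is the midpoint of a peak. Clusters hold 3 or more shared positions with gaps of at most 10 kb. Intervals are exact binomial (Clopper-Pearson), or order-statistic for medians. No test between conditions was run.

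The members, the gene lists, the alternatives and the rule for named genes (the 15 best shared positions by the worse rank of the pair, the 8 tightest clusters, the 8 genes with most positions, up to 4 members per list) were chosen with earlier results of these data known. The runs, their length limits and the palindrome were chosen after the data were seen. Overlap and run finding were tested on simulated data. Tables were handled with pandas 2.3.3 and numpy 2.4.6 in Python 3.11.15, intervals came from scipy 1.17.1 and plots from matplotlib 3.10.9.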

Additional observations from a re-analysis of the deposited data

How the results depend on the processing

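Of 42 alternative values, 12 stayed within the interval of the reported value (for counts, within 1.5 times) and 30 moved, none with a change of sign, since these values have no direction. The share of SCI peaks that are shared was 14.7% with overlap of 50% of both peaks, 10.6% with centres within 50 bp, 21% with only scores of at least the list's median, 13.9% with a sham list of the best-scored peaks, as long as the SCI list, 29.6% without scores of square-root form (an alternative added after seeing the data) and 8.84% when sham peaks are counted over SCI. Under the first 3 of these, the centre offset was 33, 22 and 48.5 bp, positions strong in both lists numbered 304, 259 and 173, the median gap was 293, 417 and 398 kb, and clusters numbered 8, 5 and 1. The median place in the list was 31.7% with centres within 50 bp, 36.6% with scores at or above the median, 28.1% for sham peaks and 31.1% with the shortened sham list, which left 257 strong in both. With scores at or above the median 75.8% lay near a protein-coding gene and 81 list genes had a position. Protein-coding genes alone gave 45.1% inside, all genes 90.3% within 50 kb, a window of 5 kb 53.8%, and the inside of genes 38 list genes. A gap of 50 kb gave 248 clusters. Stricter rules keep fewer positions by construction. The share of promoter positions with a run, whose alternatives were all added after seeing the data, stayed between 64.3 and 88.9%. No paired analysis was possible because each condition has 1 ChIP library. Promoter sequence was read at only 42 of the 7845 positions, so nothing is known here of runs at the others.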
